A study of Mus musculus with 11 samples.

Results

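The interferon regulatory factors (IRFs) are a family of transcription factors that read and write the interferon response. The members were fixed by name: *Irf1*, *Irf2*, *Irf3*, *Irf4*, *Irf5*, *Irf7*, *Irf8*, *Irf9* and *Irf2bp2*, the last of which encodes a corepressor that binds IRF2 and is no IRF itself. They are 9 of the 35814 gene symbols in the table, and all 9 passed the expression filter in every comparison. The study asked by bulk RNA sequencing how IKK1 and NIK, kinases of the alternative NFκB pathway, shape renal CD4+ T cells after ischemia–reperfusion injury (IRI). There were 3 CD4cre libraries, which are the controls and carry Cre driven by the CD4 promoter, 5 CD4IKK1Δ libraries, in which the same Cre is combined with floxed *Chuk* (IKK1), and 3 CD4NIKΔ libraries, in which it is combined with floxed *Map3k14* (NIK). All came from male mice of 8 to 12 weeks on a C57BL/6 background, on day 2 after 45 min of ischemia of both kidneys. The GEO genotype field calls the controls WT, whereas their titles name CD4cre. CD4 is also transcribed by thymocytes of the CD8 lineage, so that this Cre is not restricted to mature CD4+ cells.

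Each IRF binds DNA through a domain that recognises repeats of GAAA, and members differ in what turns them on. IRF3, IRF5 and IRF7 are latent proteins that kinases such as TBK1 activate downstream of nucleic acid sensors. IRF9 is part of ISGF3, the complex that carries the type I interferon signal to the nucleus. IRF1 activates genes of the interferon gamma response and IRF2 competes with it for the same sites. IRF4 and IRF8 bind with partners such as BATF or PU.1, and in T cells IRF4 is induced by the T cell receptor and is needed for T helper differentiation.

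Of the 9 members, 5 were higher in CD4NIKΔ than in CD4cre mice (*Irf2*, *Irf3*, *Irf7*, *Irf9* and *Irf2bp2*), by 2.83- to 7.76-fold. A gene was called where edgeR's quasi-likelihood test gave an FDR (Benjamini-Hochberg adjusted p) below 0.05 and the levels were over 2-fold apart, which held for 17.4% of 15209 genes tested in this comparison, with 10.4% called higher. Between CD4IKK1Δ and CD4NIKΔ mice, 7 of 9 members were lower in CD4IKK1Δ (all but *Irf4* and *Irf8*), where 33.3% of 16546 genes were called and 18.5% were called lower. Between CD4IKK1Δ and CD4cre mice edgeR called 0 of 9 members and 0% of 15653 genes, although 3 members and 16.6% of genes had an unadjusted p under 0.05 and DESeq2 called 2 members and 4.76% of its genes. The directions hold for values relative to the total of a library. When libraries were instead scaled to their T cell marker transcripts, edgeR called 0 members between CD4NIKΔ and CD4cre mice (*Irf9* alone had an FDR under 0.05, at under 2-fold), and *Irf2* and *Irf2bp2* were called higher, not lower, in CD4IKK1Δ than in CD4NIKΔ mice. This scaling shifts nearly all genes, with 10373 of 15209 called lower in the first comparison and 13603 of 16546 called higher in the other, so that the turned signs are not particular to the members.

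The libraries differed in how much T cell RNA they held. Total estimated counts ran from 15751632 to 25737046, so that 3 counts, used as the floor, corresponded to 0.115 to 0.212 CPM (counts-per-million values, with TMM factors over all 11 libraries). Floors cover counting error only, since reads amplified with the SMARTer kit carry no molecular identifiers. The summed level of 16 T cell markers was 1757 to 3184 CPM in CD4cre, 217 to 1569 CPM in CD4IKK1Δ and 8514 to 12686 CPM in CD4NIKΔ libraries, with no overlap between genotypes, and none of the defining markers *Cd3e*, *Trac* and *Cd4* was at 0 throughout a genotype. T cell receptor constant-region transcripts had only 41 and 868 counts in CD4IKK1Δ replicates 1 and 2, against 5277 to 111648 in the other 9 libraries. In those 2 libraries *Thy1*, which is also expressed outside the T lineage, made up 94.2% and 52.9% of the summed T cell markers, against 0.835% to 20.7% elsewhere. In bulk RNA, fewer T cells and less RNA per cell cannot be told apart. Neither targeted gene was called lower in its own deletion. *Chuk* had a log2 fold change of −0.11 (FDR 0.921, edgeR) in CD4IKK1Δ against CD4cre mice, and *Map3k14* one of 0.30 (FDR 0.575) in CD4NIKΔ against CD4cre mice. *Map3k14* was lowest in CD4IKK1Δ libraries, with −1.91 (FDR 0.00418) against CD4NIKΔ and −1.58 (FDR 0.148, DESeq2 adjusted p = 0.0155) against CD4cre mice, without overlap in either. These values are summed over transcripts and do not resolve floxed exons, so that the genotype names below stand for the labels.

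Markers of most other cells moved too. Summed macrophage and monocyte markers (14 genes) were 474 to 1873 CPM in CD4cre, 100.2 to 262 CPM in CD4IKK1Δ and 909 to 1143 CPM in CD4NIKΔ libraries. Dendritic cell markers (9 genes) were 116 to 436, 12.8 to 76.9 and 425 to 771 CPM in the same order, most of it *Ccr7*, which naive T cells also express (means of 201, 22.2 and 434 CPM), and *Bst2*, while *Flt3* had means of 3.57, 2.68 and 0.322 CPM. B and plasma cell markers (10 genes) were 71.9 to 141, 4.33 to 26.6 and 199 to 670 CPM. NK and CD8 T cell markers (8 genes) were 29.6 to 87.7, 0.647 to 22.9 and 283 to 416 CPM, without overlap, kidney tubule markers (11 genes) 18.1 to 90.9, 3.61 to 12.3 and 18.7 to 123 CPM, and erythroid markers (5 genes) 2080 to 2683, 532 to 1614 and 1178 to 8189 CPM. Markers of neurons and glia (9 genes) ran the other way, with 1528 to 1890, 1981 to 2229 and 471 to 1131 CPM. The endothelial sum (6 genes) was 107 to 132, 111 to 144 and 74.6 to 85.5 CPM, most of it *Plvap* (means of 97.8, 110.6 and 39.5 CPM). *Pecam1*, a defining endothelial marker, had means of 13.5, 10.1 and 33.5 CPM. In CD4NIKΔ against CD4cre mice 1 endothelial gene was called higher and 1 lower. Neutrophil markers (7 genes) overlapped between all genotypes, with 3.12 to 5.42, 2.54 to 6.40 and 2.71 to 4.80 CPM. The CD4+ T cells were enriched with beads and sorted, and how many other cells remained is not known. Macrophages, dendritic cells and B cells are known to express *Irf5*, *Irf7* and *Irf8*. The part of any of these cells in the results below was not tested.

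Before any comparison, the members were ranked within each genotype by level per length (CPM per kilobase of the union of exons in GENCODE vM39). In CD4cre mice *Irf3* (14.4 CPM per kb) and *Irf2bp2* (14.1) led, followed by *Irf7* (7.70), *Irf1* (3.14), *Irf9* (2.68), *Irf2* (1.79), *Irf4* (0.529), *Irf8* (0.454) and *Irf5* (0.119). Neighbours in this order did not overlap between libraries at 3 steps, from *Irf7* to *Irf1*, from *Irf2* to *Irf4* and from *Irf8* to *Irf5*. In CD4NIKΔ mice the order was *Irf3* (44.3), *Irf2bp2* (40.2), *Irf7* (35.3), *Irf9* (21.0), *Irf1* (15.7), *Irf2* (6.61), *Irf4* (3.76), *Irf8* (1.41) and *Irf5* (0.542 CPM per kb), and neighbours were apart only between *Irf7* and *Irf9*. CD4IKK1Δ mice had *Irf2bp2* (5.87) and *Irf3* (4.91) on top, then *Irf7* (2.34), *Irf2* (1.61), *Irf9* (1.02), *Irf4* (1.01), *Irf1* (0.739), *Irf8* (0.223) and *Irf5* (0.0305 CPM per kb), and all neighbours overlapped. *Irf3* or *Irf2bp2* ranked first in every library but CD4NIKΔ replicate 1, where *Irf7* did. The ranks depend on the length used. Per length of the longest transcript, *Irf3* ranked first in every CD4cre and CD4NIKΔ library. Orders by mean then also changed, with *Irf2* above *Irf9* in CD4cre, *Irf2* above *Irf7* in CD4IKK1Δ and *Irf7* above *Irf2bp2* in CD4NIKΔ mice.

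**Figure D1:**
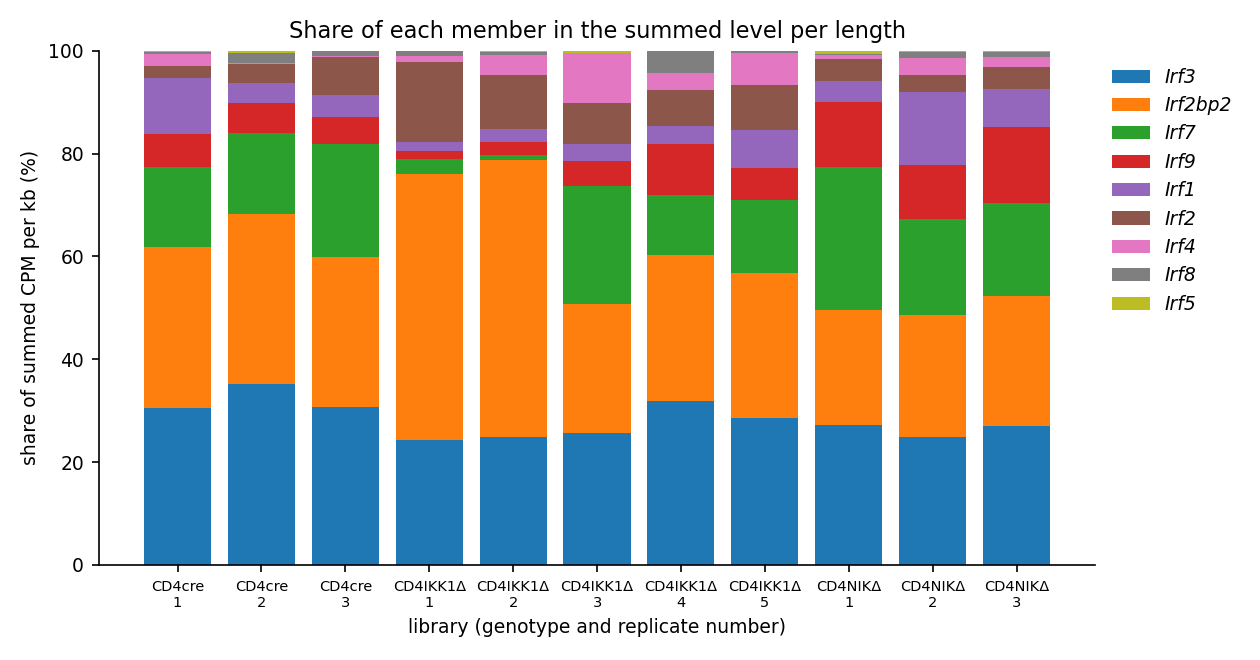
Share of each member (colours, in % of the summed CPM per kb of the 9 members) in each of the 11 libraries, by genotype and replicate number. *Irf2bp2* reached 51.8% and 53.7% in CD4IKK1Δ replicates 1 and 2, against 22.3% to 33.01% in the other 9 libraries.

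As shares of the summed level per length of all 9 members, *Irf3* was steady, with 24.3% to 35.2% in every library. *Irf2bp2* took 51.8% and 53.7% in CD4IKK1Δ replicates 1 and 2, the libraries with almost no T cell receptor transcripts, and 22.3% to 33.01% elsewhere. *Irf7* fell to 2.80% and 1.02% in the same 2 libraries, against 11.8% to 27.8% elsewhere. *Irf9* had 10.5% to 14.8% in CD4NIKΔ, 5.33% to 6.32% in CD4cre and 1.71% to 9.83% in CD4IKK1Δ libraries. The mixture of members thus shifted between libraries along with its size, which was 9.78 to 24.6 CPM per kb in CD4IKK1Δ, 31.5 to 59.9 in CD4cre and 134 to 208 in CD4NIKΔ libraries. With the longest transcript as the length, the highest share of *Irf2bp2* was 40.7%, in a CD4IKK1Δ library.

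**Figure D2:**
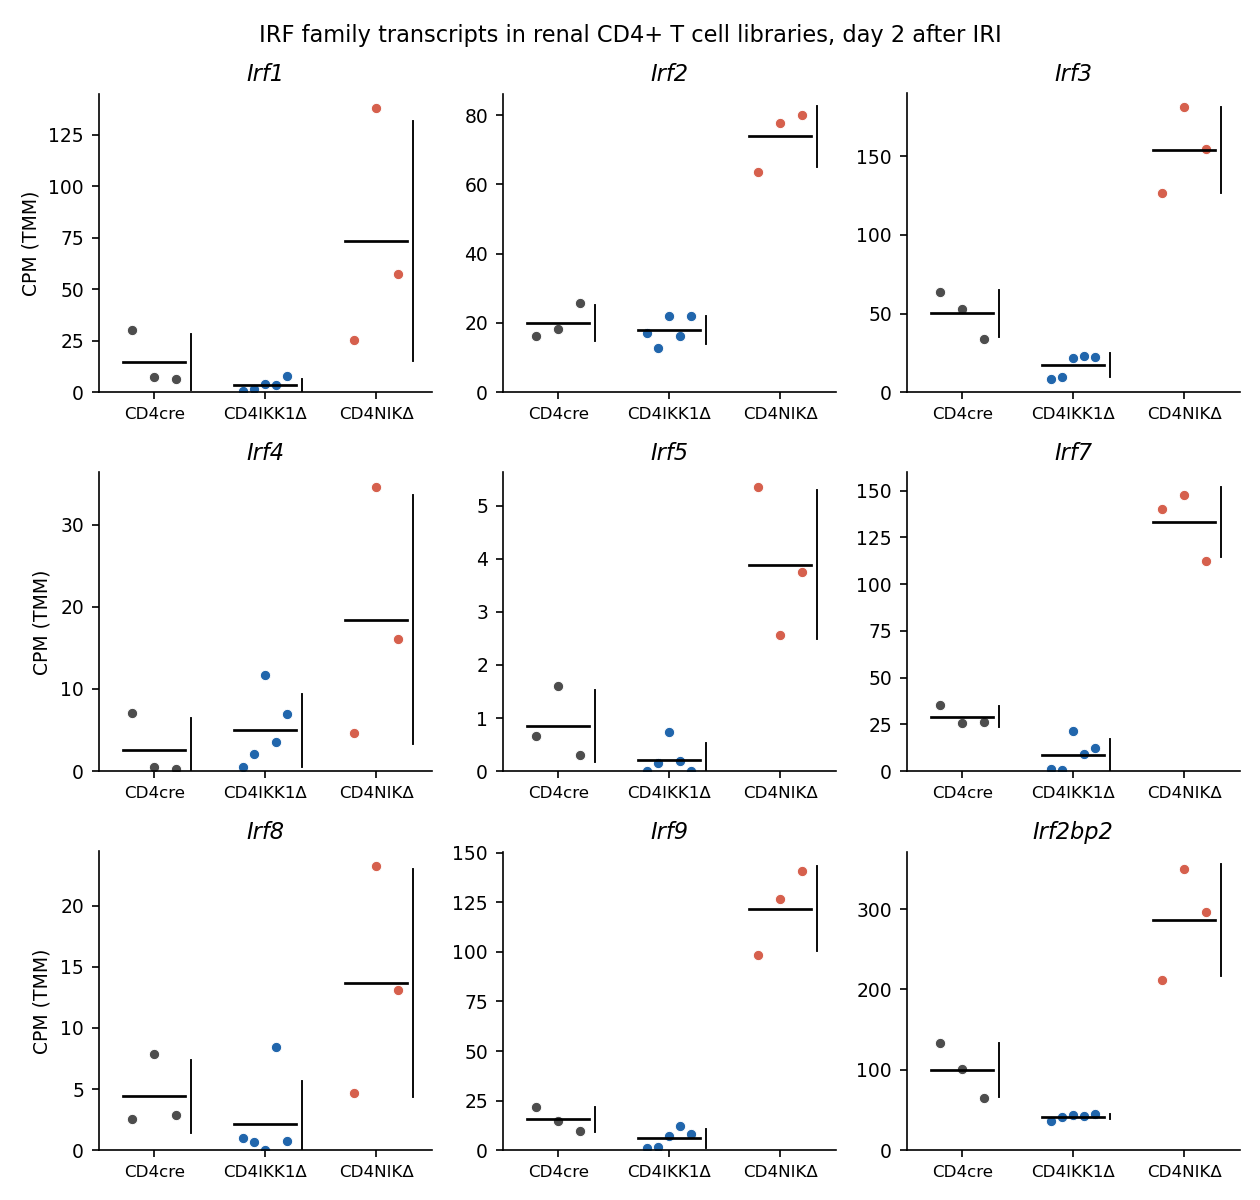
CPM (TMM) of each member in every library by genotype. Points are libraries, horizontal lines are means and vertical lines are 1 SD to each side, ending at 0 where they would go below. For *Irf2*, *Irf3*, *Irf5*, *Irf7*, *Irf9* and *Irf2bp2* the 3 CD4NIKΔ points lie above all CD4cre points on this scale, which was not so for the fitted direction of *Irf2*, *Irf3* and *Irf2bp2* when libraries were scaled to T cell markers.

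The first group are the latent factors and their relay. *Irf3*, which lies on chr7:44647033-44652272 (GRCm39, plus strand), is transcribed constitutively and encodes the factor that starts interferon beta transcription. It had 63.7, 53.0 and 33.7 CPM in CD4cre, 8.28, 9.48, 22.0, 23.2 and 22.5 CPM in CD4IKK1Δ and 127, 181 and 154 CPM in CD4NIKΔ libraries. Each genotype occupied its own range, CD4IKK1Δ lowest and CD4NIKΔ highest. The log2 fold change was 1.61 ± 0.27 (SE, FDR 0.00916) for CD4NIKΔ against CD4cre and −3.17 ± 0.35 (FDR 8.28e-05) for CD4IKK1Δ against CD4NIKΔ. Against CD4cre, CD4IKK1Δ had −1.55 ± 0.38 (FDR 0.104), a difference that DESeq2 called (adjusted p = 0.00403) and edgeR did not.

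*Irf7*, on chr7:140842619-140846398 (minus strand), is itself an interferon target and amplifies the type I response. Its levels were 35.5, 25.8 and 26.0 CPM in CD4cre, 1.03, 0.419, 21.3, 9.30 and 12.1 CPM in CD4IKK1Δ and 140.3, 148 and 112 CPM in CD4NIKΔ libraries. The genotypes did not overlap, and the lowest values were those of CD4IKK1Δ replicates 1 and 2. CD4NIKΔ exceeded CD4cre by 2.18 ± 0.23 on the log2 scale (SE, FDR 0.00230), whereas with all 11 libraries in the fit it was 2.20 ± 1.05 (FDR 0.184), of the same size with a larger error. The difference of CD4IKK1Δ from CD4NIKΔ was −3.91 ± 0.93 (FDR 0.00733) and that from CD4cre −1.72 ± 0.99 (FDR 0.434).

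*Irf9*, on chr14:55841028-55847812 (plus strand), encodes the DNA-binding subunit of ISGF3. CD4cre libraries had 22.0, 14.9 and 9.73 CPM, CD4IKK1Δ libraries 0.970, 1.62, 6.96, 11.9 and 8.07 CPM and CD4NIKΔ libraries 98.2, 127 and 141 CPM. Only CD4NIKΔ stood clear of the other genotypes, which overlapped. This was the largest called rise among the members in CD4NIKΔ against CD4cre mice, 2.96 ± 0.32 on the log2 scale (FDR 0.00255), and CD4IKK1Δ differed from CD4NIKΔ by −4.36 ± 0.67 (FDR 0.000528). CD4IKK1Δ against CD4cre gave −1.39 ± 0.70 (FDR 0.352).

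*Irf5*, on chr6:29526276-29541870 (plus strand), encodes a factor of myeloid and B cells that acts below Toll-like receptors. It had the lowest mean of the members in each genotype, with 0.654, 1.61 and 0.301 CPM in CD4cre, 0, 0.157, 0.736, 0.199 and 0 CPM in CD4IKK1Δ and 5.36, 2.56 and 3.74 CPM in CD4NIKΔ libraries. Zero counts allow up to 0.194 and 0.135 CPM in CD4IKK1Δ replicates 1 and 5. The CD4NIKΔ range lay above both others, but the log2 fold change against CD4cre of 2.17 ± 0.79 did not pass (FDR 0.0813), while that of CD4IKK1Δ against CD4NIKΔ did (−4.12 ± 1.19, FDR 0.0142). Leaving out 1 library gave 1.79 to 3.01 for the former and −5.33 to −3.80 for the latter, with an FDR of up to 0.0490, and with the replicate number as a block the latter was no longer called (−4.02, FDR 0.0757).

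The second group are IRF1, its competitor IRF2 and the corepressor. *Irf1*, on chr11:53660812-53669200 (plus strand), is induced by interferon gamma and NFκB. It had 30.3, 7.50 and 6.32 CPM in CD4cre, 0.776, 1.31, 3.96, 3.43 and 7.80 CPM in CD4IKK1Δ and 25.2, 138 and 57.3 CPM in CD4NIKΔ libraries. CD4cre replicate 1 exceeded CD4NIKΔ replicate 1, so that these genotypes overlapped, and CD4IKK1Δ overlapped with CD4cre but not with CD4NIKΔ. The log2 fold change of CD4NIKΔ against CD4cre was 2.30 ± 0.75 (FDR 0.0587), which passed without CD4cre replicate 1 (3.38, FDR 0.0243) or without CD4NIKΔ replicate 1 (2.73, FDR 0.0306), whereas it was 1.51 (FDR 0.224) without CD4NIKΔ replicate 2. CD4IKK1Δ was lower than CD4NIKΔ (−4.40 ± 0.82, FDR 0.00158) and had −2.09 ± 0.75 (FDR 0.208) against CD4cre, or −0.99 (FDR 0.751) without CD4cre replicate 1.

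*Irf2*, on chr8:47192222-47300501 (plus strand), encodes the competitor of IRF1. The values were 16.1, 18.1 and 25.8 CPM in CD4cre, 17.1, 12.7, 21.9, 16.2 and 22.1 CPM in CD4IKK1Δ and 63.7, 77.9 and 80.1 CPM in CD4NIKΔ libraries. CD4cre and CD4IKK1Δ covered one range and CD4NIKΔ lay far above it. The log2 difference of CD4IKK1Δ from CD4cre was −0.15 ± 0.28 (FDR 0.870, 95% interval from −0.71 to 0.41), and its sign turned without CD4cre replicate 3 (0.07). CD4NIKΔ had 1.87 ± 0.26 (FDR 0.00490) against CD4cre, and CD4IKK1Δ had −2.04 ± 0.23 (FDR 9.24e-05) against CD4NIKΔ. This was also the member with the smallest spread over the 11 libraries, an SD of 0.97 on the log2 scale against 1.23 to 2.64 for the others.

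*Irf2bp2*, on chr8:127313038-127320753 (minus strand), encodes the IRF2 corepressor, which in T cells is also known to restrain NFAT activity. CD4cre libraries had 133, 101 and 65.2 CPM, CD4IKK1Δ libraries 35.96, 41.6, 43.7, 42.2 and 45.01 CPM and CD4NIKΔ libraries 212, 350.2 and 296 CPM. The 5 CD4IKK1Δ values were close together, and included replicates 1 and 2, which were far below the others for *Irf7*. Nothing overlapped between genotypes. The fold change of CD4IKK1Δ against CD4cre was −1.26 ± 0.21 on the log2 scale with an unadjusted p of 7.99e-05 and an FDR of 0.0551 in edgeR, just short of the threshold, and DESeq2 called it (adjusted p = 9.18e-06). CD4NIKΔ exceeded CD4cre by 2.83-fold (FDR 0.0147), but this call was lost without CD4cre replicate 2, CD4NIKΔ replicate 2 or CD4NIKΔ replicate 3 (FDR 0.0519, 0.0557 and 0.0541), while the log2 value stayed between 1.36 and 1.54. CD4IKK1Δ against CD4NIKΔ gave −2.78 ± 0.22 (FDR 1.73e-05).

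The third group are the factors of lymphocyte differentiation. *Irf4*, on chr13:30933209-30950959 (plus strand), is the member most tied to T cell activation. Its levels were 7.04, 0.487 and 0.251 CPM in CD4cre, 0.517, 2.15, 11.7, 3.53 and 6.99 CPM in CD4IKK1Δ and 4.64, 34.6 and 16.03 CPM in CD4NIKΔ libraries. All genotypes overlapped, and CD4cre replicate 1 was far above the other CD4cre libraries. *Irf4* was the only member whose fitted level was higher in CD4IKK1Δ than in CD4cre mice (0.93 ± 1.16, FDR 0.773), a value that ran from 0.34 without CD4IKK1Δ replicate 3 to 3.73 without CD4cre replicate 1, and that was 0.44 and 0.39 without CD4cre replicates 2 and 3. CD4NIKΔ against CD4cre gave 2.80 ± 1.19 (FDR 0.127), which passed without CD4cre replicate 1 (5.58, FDR 0.0159) and was 2.01 (FDR 0.366) without CD4NIKΔ replicate 2. CD4IKK1Δ against CD4NIKΔ gave −1.89 ± 1.08 (FDR 0.184), or −1.06 (FDR 0.548) without CD4NIKΔ replicate 2.

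*Irf8*, on chr8:121463096-121485659 (plus strand), is required for dendritic cells and B cells and is low in resting CD4+ T cells. It had 2.54, 7.84 and 2.86 CPM in CD4cre, 0.970, 0.629, 0, 8.46 and 0.767 CPM in CD4IKK1Δ and 4.64, 23.3 and 13.1 CPM in CD4NIKΔ libraries, where the 0 allows up to 0.170 CPM. CD4IKK1Δ replicate 4 lay above the CD4cre range and within that of CD4NIKΔ, while the other 4 CD4IKK1Δ libraries lay below both. With no library left out and without the replicate number as a block, no comparison of *Irf8* passed in edgeR. CD4NIKΔ against CD4cre gave 1.604 ± 0.67 (FDR 0.122), with 2.04 (FDR 0.0435) without CD4NIKΔ replicate 1 and 1.02 (FDR 0.407) without CD4NIKΔ replicate 2. CD4IKK1Δ against CD4cre gave −1.02 ± 1.25 (FDR 0.766), with −0.31 without CD4cre replicate 2 and −2.89 without CD4IKK1Δ replicate 4. CD4IKK1Δ against CD4NIKΔ gave −2.65 ± 1.15 (FDR 0.0854), and this was −4.52 (FDR 0.00371) without CD4IKK1Δ replicate 4 and −4.74 (FDR 0.0184) with the block.

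**Figure D3:**
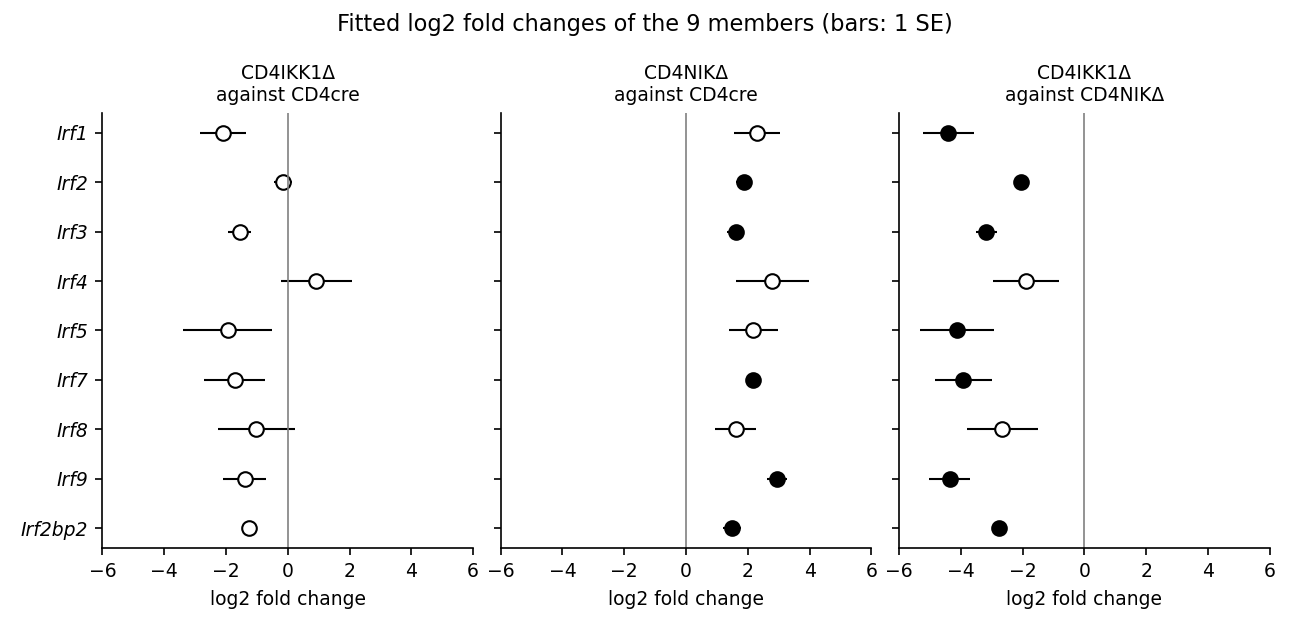
Fitted log2 fold changes of the 9 members in the 3 comparisons, with bars of 1 SE, filled where called. CD4NIKΔ against CD4cre has 5 filled points above 0 and CD4IKK1Δ against CD4NIKΔ 7 below 0, whereas after scaling to T cell markers the former had 0 and the latter 2 called, both above 0, where 10488 of 15209 and 13731 of 16546 genes were called.

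Windows around the transcription starts of the members were searched for known response elements, since most members moved together. RefSeq windows from 250 bases before to 50 bases after the start (sequences of GRCm38.p6, placed on GRCm39 by exact match) were available for all 9 members, 12 windows in all. The core of the interferon-stimulated response element (GAAA, NN and GAAA in a row, either strand), to which IRFs and ISGF3 bind, was found for *Irf2* alone, 1 of 9 members, against 3.99% of 27025 genes (3.44% of 32851 windows). The gamma-activated site (TTCNNNGAA), an element of the interferon gamma response, was found for *Irf1*, *Irf2* and *Irf8*, 3 of 9 members, against 9.55% of genes (8.3% of windows). No window of *Irf3*, *Irf4*, *Irf5*, *Irf7*, *Irf9* or *Irf2bp2* held these letters. A match is a description of the sequence and not a bound site.

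The matches with the best-known counterparts are shown with their flanks, 5′ to 3′ on the plus strand with the motif in capitals. They are the gamma-activated match of *Irf1* (chr11:53660726-53660784), the element of *Irf2* (chr8:47192530-47192573) and the upstream gamma-activated match of *Irf8* (chr8:121462901-121462959).
Irf1, gamma-activated site: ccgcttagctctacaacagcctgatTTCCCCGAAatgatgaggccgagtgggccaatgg
Irf2, interferon-stimulated response element: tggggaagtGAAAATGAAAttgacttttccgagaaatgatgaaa
Irf8, gamma-activated site: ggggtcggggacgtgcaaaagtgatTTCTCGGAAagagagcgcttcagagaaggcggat

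The *Irf1* match lies at −90 to −82 from its RefSeq start. The *Irf2* element lies at −241 to −232 from its RefSeq start, outside exons but within the span that GENCODE gives the gene, and is followed by a gamma-activated match at −224 to −216. In *Irf8* the printed match at −171 to −163 is followed by another at −153 to −145. *Irf1* and *Irf8*, which share the gamma-activated letters, did not share a pattern over libraries, with a root mean square difference of 1.83 on the log2 scale (centred log2 CPM, 11 libraries), the largest that *Irf1* had with any member. *Irf2*, with both elements in its window, was the member with the smallest spread. Whether any element bears on these patterns was not tested.

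In CD4NIKΔ against CD4cre mice all 9 members were fitted higher, where 50.9% of all genes were fitted lower, and all 9 had an unadjusted p under 0.05, as 36.9% of all genes did. They had a median log2 fold change of 2.17 against −0.02 for all genes tested. Their ranges did not overlap for 6 members (*Irf5* and the 5 called ones), where 22.9% of all genes were higher and 22.4% lower without overlap. DESeq2 called 8 of 9, all but *Irf4*, against 23.2% of its genes called, 13.3% higher and 9.95% lower. The T cell markers, of which 13 of 16 were called higher, had a median of 2.06 in the same fit. Scaling to T cell markers moved the median of all genes to −2.16, and *Irf2*, *Irf3*, *Irf8* and *Irf2bp2* then had log2 fold changes below 0 (−0.37, −0.47, −0.58 and −0.58), while *Irf1*, *Irf4*, *Irf5*, *Irf7* and *Irf9* stayed above 0 (0.28, 0.90, 0.21, 0.09 and 0.89).

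In CD4IKK1Δ against CD4cre mice 8 of 9 members were fitted lower, where 48.7% of all genes were, with a median of −1.39 against 0.02. At an unadjusted p under 0.05 there were 3 members, *Irf1*, *Irf3* and *Irf2bp2*, all lower, as 8.91% of all genes were at that level. *Irf3*, *Irf7* and *Irf2bp2* were lower without overlap, as were 8.44% of all genes, while 6.02% were higher. DESeq2 called *Irf3* and *Irf2bp2* lower, against 4.41% of its 11585 genes. The median of the T cell markers was −2.04. This comparison shares its CD4cre libraries with the one above, so that the opposite signs are not independent of each other. Scaling to T cell markers moved the median of all genes to 2.39 and gave calls of 2 members, *Irf2* (2.04, FDR 0.0393) and *Irf4* (2.83, FDR 0.0467), both higher in CD4IKK1Δ. In the same fit 8759 of 15653 genes were called higher, so that these calls say nothing particular to the members. Without *Thy1* among the markers the values were 4.995 ± 2.36 (FDR 0.0609) and 4.15 ± 2.36 (FDR 0.1003), larger but with a wider spread, and neither was called. Without CD4IKK1Δ replicates 1 and 2, the members' median was −1.03, and no member was called.

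In CD4IKK1Δ against CD4NIKΔ mice all 9 were fitted lower, where 48.7% of all genes were, and 8 of 9 had an unadjusted p under 0.05, as 49.5% of all genes did and 25.7% did with lower values. The median was −3.17 against 0.06 for all genes and −4.06 for the T cell markers. *Irf1* and *Irf9* had the highest fitted differences, 21.1- and 20.5-fold, and *Irf4* and *Irf2* the lowest, 3.70- and 4.10-fold, an order that leaving out 1 library can change (*Irf1* −4.95 to −3.58 and *Irf5* −5.33 to −3.80 on the log2 scale). The ranges of 7 members did not overlap, against 24.4% of all genes that were lower without overlap. DESeq2 also called *Irf8* (adjusted p = 0.0351), against 34.7% of its genes called and 20.2% called lower. Leaving out CD4IKK1Δ replicates 1 and 2 left the count at 7. After scaling to T cell markers *Irf2* (2.41, FDR 0.00408) and *Irf2bp2* (1.74, FDR 0.0238) were higher in CD4IKK1Δ mice, as were 13603 of 16546 genes, and the median of all genes moved to 4.57.

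**Figure D4:**
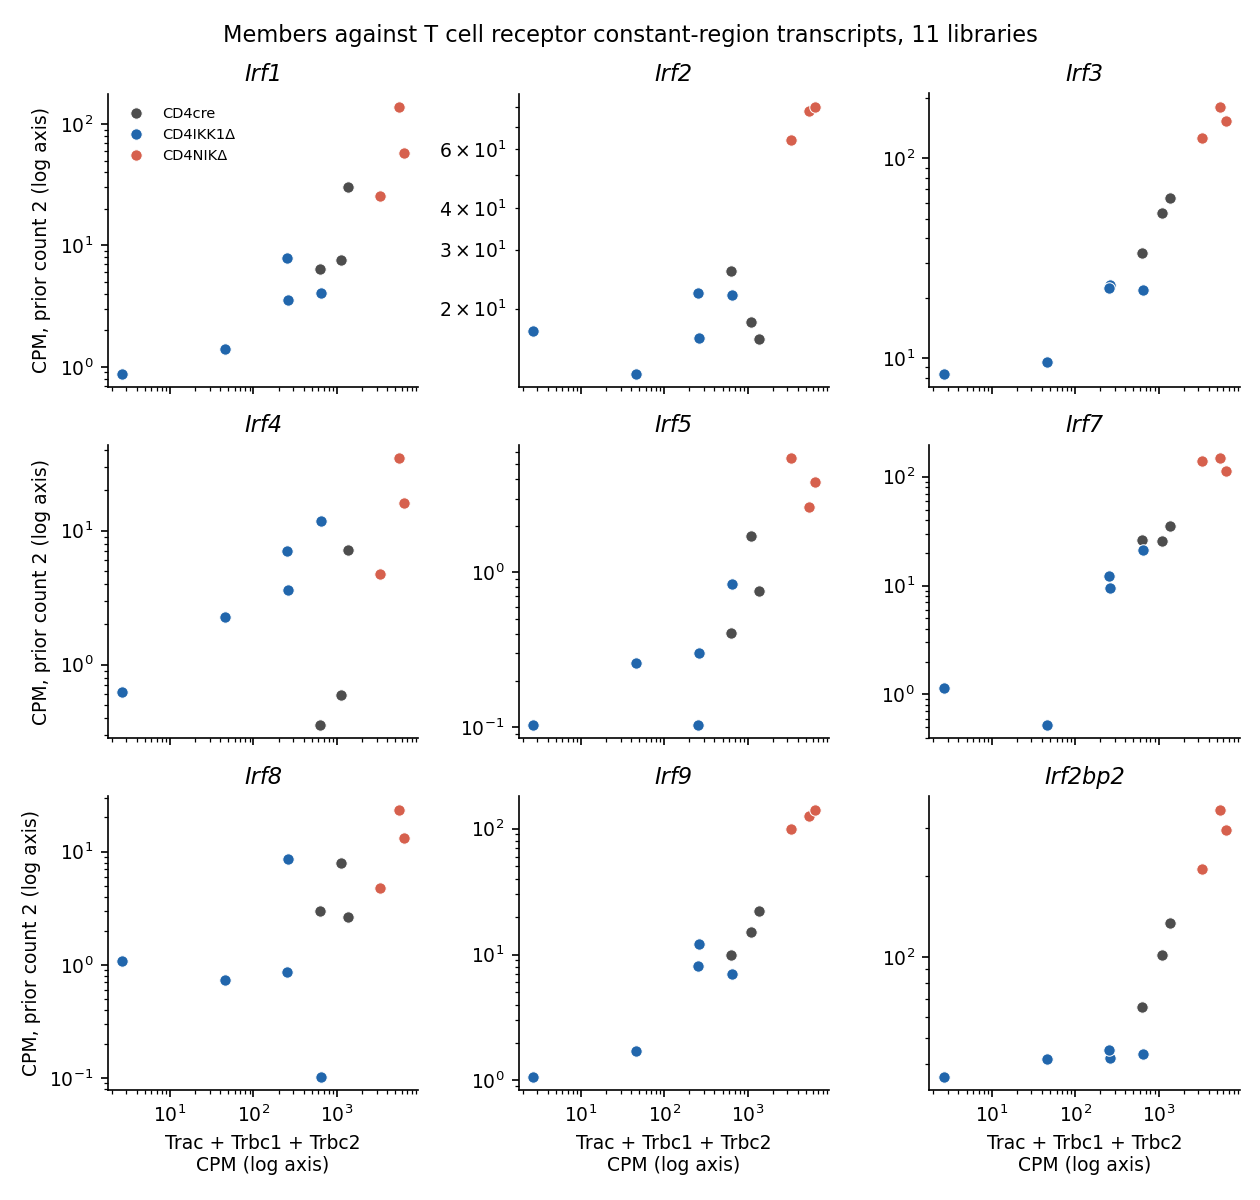
CPM of each member (log axis, prior count of 2) against the summed CPM of the T cell receptor constant-region genes *Trac*, *Trbc1* and *Trbc2* (log axis) in the 11 libraries, coloured by genotype. The 3 CD4NIKΔ libraries, at 3320 to 6380 CPM, have the 3 highest values of 6 members, and the 2 libraries at 2.65 and 45.5 CPM have the 2 lowest of 5 members.

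Set beside the T cell receptor constant-region transcripts of the same library, the members fell into those that followed the order and those that did not. The receptor transcripts were 1378, 1107 and 630 CPM in CD4cre, 2.65, 45.5, 646, 262 and 255 CPM in CD4IKK1Δ and 3320, 5494 and 6380 CPM in CD4NIKΔ libraries. *Irf3*, *Irf7*, *Irf9* and *Irf2bp2* had both their 3 highest and their 2 lowest values in the libraries with the most and the least receptor transcripts. *Irf2* and *Irf5* shared only the top libraries and *Irf1* only the bottom ones, while *Irf4* and *Irf8* shared neither. CD4cre and CD4IKK1Δ replicate 3 had near-equal receptor transcripts (630 and 646 CPM) and *Irf3* at 33.7 and 22.0 CPM, *Irf7* at 26.0 and 21.3 CPM, *Irf2bp2* at 65.2 and 43.7 CPM and *Irf4* at 0.251 and 11.7 CPM. With 1 library on each side, these last values have no replicate check.

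Among the upstream activators of IRF3, IRF5 and IRF7 (16 of 18 listed symbols in the table, 14 to 16 tested), 4 of 14 were higher in CD4NIKΔ than in CD4cre mice and none lower. For this and the lists below, 10.4% of all genes were called higher in that comparison, and 18.5% were called lower in CD4IKK1Δ against CD4NIKΔ mice. *Sting1*, the adaptor of cytosolic DNA sensing, rose by 2.48 ± 0.34 on the log2 scale (FDR 0.00484), *Myd88*, the Toll-like receptor adaptor, by 1.92 ± 0.41 (FDR 0.0193), and *Traf6*, a ubiquitin ligase below it, by 1.22 ± 0.25 (FDR 0.0170). The fourth was the kinase gene *Tbk1* (1.12, FDR 0.0294), named after its values were seen. In CD4IKK1Δ against CD4NIKΔ mice 7 of 16 were lower, among them *Sting1* with −5.78 ± 0.92 (FDR 0.000982) and means of 4.64 against 256 CPM. One of the 7 was *Tlr7*, an RNA sensor that passed the filter through CD4NIKΔ libraries only, with 4 of 5 CD4IKK1Δ libraries at 0 and the other at 3 counts, and so had to differ. After scaling to T cell markers the medians of this list turned to −0.84 and 2.06 in these comparisons.

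Of the interferon receptors, JAKs and STATs (9 genes), higher levels were called for 5 of 8 tested in CD4NIKΔ against CD4cre mice. *Ifngr1*, which encodes the ligand-binding chain of the interferon gamma receptor, had 99.8, 87.0 and 49.6 CPM in CD4cre, 4.204, 4.191, 14.9, 18.999 and 28.005 CPM in CD4IKK1Δ and 301, 177 and 256 CPM in CD4NIKΔ libraries. Its genotypes did not overlap, and the log2 fold change was 1.63 ± 0.31 (FDR 0.0141) in CD4NIKΔ against CD4cre mice. *Jak1*, the kinase shared by both interferon pathways, had 1.59 ± 0.39 (FDR 0.0272) in the same comparison. Outside the naming rule and seen afterwards, *Stat2*, which encodes a subunit of ISGF3, was not called (1.07, FDR 0.0802), and *Ifngr2* ran against the list, with −0.65 (FDR 0.0381) in CD4NIKΔ and no overlap, short of the fold threshold. In CD4IKK1Δ against CD4NIKΔ mice 7 of 9 were lower, and scaling to T cell markers turned the medians of this list from 1.57 to −0.53 and from −2.35 to 2.55.

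The targets of ISGF3 (19 genes) and the targets of IRF1 and interferon gamma (19 genes, 18 tested) had the highest shares of calls against CD4cre among the 6 pathway lists, beside 13 of 16 T cell markers. In CD4NIKΔ mice 13 of 19 and 15 of 18 were higher and none lower, with medians of 2.56 and 2.68. *Gbp6*, a guanylate-binding protein gene of the interferon gamma response, had 13.5, 14.996 and 10.3 CPM in CD4cre and 119, 123 and 140 CPM in CD4NIKΔ libraries (3.29 ± 0.23, FDR 0.00150). *Rtp4*, a type I interferon target, rose by 3.94 ± 0.59 (FDR 0.00682). *Rsad2*, which encodes the antiviral protein viperin, was at 0 in all CD4cre libraries and at 0.884, 7.97 and 1.06 CPM in CD4NIKΔ libraries, through which alone it passed the filter, so that its place in the count carries no weight. These lists were the ones whose medians stayed above 0 after scaling to T cell markers, at 0.44 and 0.61, with 2 and 5 genes then called higher and 1 and 0 lower, where 115 of 15209 genes were called higher and 10373 lower.

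The targets of ISGF3 and the targets of IRF1 and interferon gamma in CD4IKK1Δ against CD4NIKΔ mice were lower for 14 of 19 and 16 of 18, with medians of −3.62 and −4.56, where 18.5% of all genes were called lower. The 14 include *Rsad2* and *Usp18*, which passed the filter through CD4NIKΔ libraries only and so had to differ. *Casp1*, the inflammatory caspase, differed by −5.50 ± 0.50 (FDR 4.13e-05), with means of 3.75 against 170 CPM, and *Oas1a*, an RNA-sensing synthetase, by −5.70 ± 1.42 (FDR 0.00907). After scaling to T cell markers the medians were 0.60 and −0.57. Against CD4cre, 0 of 16 and 0 of 18 tested were called in CD4IKK1Δ mice, with medians of −0.98 and −1.98. The T cell markers moved with every one of these comparisons, and *Bst2* is both an ISGF3 target and on the dendritic cell list.

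DNA-binding partners of IRF4 and IRF8 (13 genes) were higher for 3 of 13 in CD4NIKΔ against CD4cre mice, where 10.4% of all genes were. They were *Ikzf3*, which encodes Aiolos (2.20 ± 0.28, FDR 0.00429), *Nfatc1* (1.81 ± 0.35, FDR 0.0148) and *Batf*, the AP-1 partner of IRF4 (1.45 ± 0.29, FDR 0.0166). *Batf* was at 123, 70.3 and 69.0 CPM in CD4cre, 0, 0.262, 33.2, 18.4 and 15.7 CPM in CD4IKK1Δ and 178, 235 and 313 CPM in CD4NIKΔ libraries. Its genotypes did not overlap, unlike those of *Irf4*. The IRF4-dependent T helper genes (7 genes) were higher for 3 in CD4NIKΔ, *Icos* (2.27, FDR 0.00405), *Il21* (2.02, FDR 0.0429) and *Gata3* (1.91, FDR 0.0173). *Il17a*, the Th17 cytokine, had 25.6, 10.2 and 4.31 CPM in CD4cre, 0, 0, 1.13, 0.0497 and 0.676 CPM in CD4IKK1Δ and 11.98, 36.1 and 20.3 CPM in CD4NIKΔ libraries. Its CD4IKK1Δ values lay below all others, whereas those of *Irf4* overlapped with both other genotypes. In CD4IKK1Δ against CD4NIKΔ mice 7 of 7 T helper genes and 9 of 13 partners were called lower, where 18.5% of all genes were. Without the CD4NIKΔ libraries only 6 and 11 of these genes passed the filter. Medians of the T helper genes were 1.91 in CD4NIKΔ against CD4cre and −4.33 in CD4IKK1Δ against CD4NIKΔ mice, and those of the partners 0.89 and −3.18. Scaled to T cell markers, these medians were −0.14 and −0.82 for the T helper genes and −1.20 and 0.72 for the partners.

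**Figure D5:**
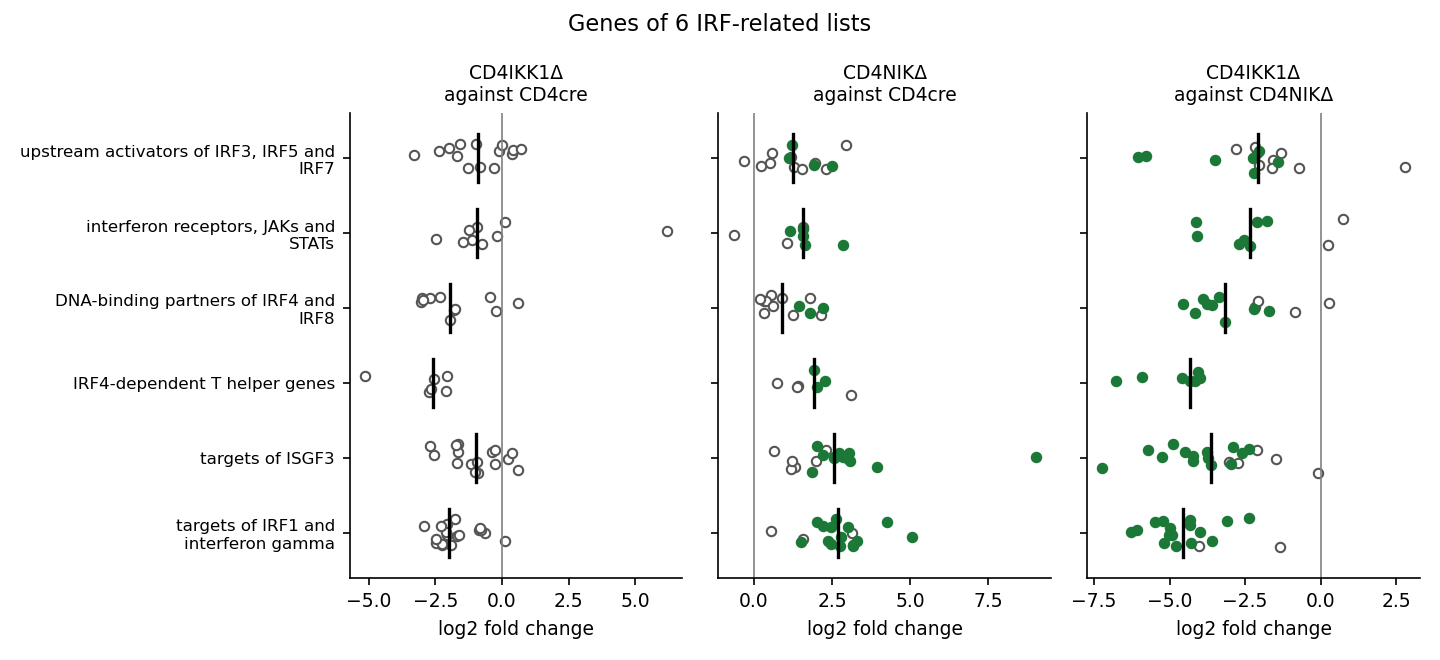
Log2 fold changes of the genes of 6 lists (rows) in the 3 comparisons, filled where called, with a vertical bar at each list's median. In CD4NIKΔ against CD4cre mice all medians lie above 0, and after scaling to T cell markers only those of the ISGF3 and the IRF1 and interferon gamma targets did.

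Genes whose pattern over the 11 libraries was closest to each member were ranked by the root mean square difference of centred log2 CPM among 16537 genes. *Irf3* had the closest match of all, *Akap13* (0.143), followed by *Arf6* (0.192), and *Irf2bp2* had *Adsl* (0.180) and *Ifrd1* (0.184). *Irf9* came nearest to *Msn* (0.426) and *Ptprc* (0.459), the latter being CD45, the common leukocyte antigen. *Irf7* came nearest to *Tnfaip3* (0.466), the NFκB inhibitor A20, and to *Tnfsf8* (0.500). The closest to *Irf1* was *Trbj2-6* (0.465), a T cell receptor segment that was near the floor in CD4IKK1Δ libraries, at 0 to 0.451 CPM. Those closest to *Irf2* were *G3bp1* (0.281) and *Sf3b1* (0.294). *Irf5*, *Irf8* and *Irf4* had no such close match, with *Traf2* (0.503), *Galnt12* (0.662) and *Ttk* (1.08) in first place. Among the members themselves, *Irf3* and *Irf2bp2* were closest (0.461), the member nearest to *Irf2* was *Irf2bp2* (0.621), that nearest to *Irf1* was *Irf9* (0.737), and *Irf4* and *Irf8* farthest apart (2.77).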

How the data were processed

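Renal CD4+ T cells were enriched with magnetic beads and sorted, and their RNA was amplified (SMARTer). The deposited table, which the authors made with Trimmomatic and kallisto, holds estimated counts by gene symbol without normalization. The build is GRCm39 in the methods and mm10 in the submitters' processing notes, and kallisto's version and annotation are not given in the sources used here. Estimated counts were rounded and tested with edgeR (4.0.16, R 4.3.3): expression filter, TMM factors, robust quasi-likelihood F test and Benjamini-Hochberg adjustment over all genes tested. Comparisons with CD4cre used their own libraries, and CD4IKK1Δ against CD4NIKΔ used all 11. The SE is the size of the log2 fold change over the root of F. DESeq2 (1.42.0) was an alternative, beside other factors and filters, scaling to 16 T cell markers, the replicate number as a block and leaving out libraries. Scaling without *Thy1* was added after seeing the data. All 9 members are named. From each list, names come from the 3 largest rises and falls per comparison among called genes whose groups do not overlap, and others are marked. Positions are from GENCODE vM39 (93.6% of symbols matched). No 2 of 55 library pairs were identical. Replicates are biological per the labels. Tests were checked on simulated data. Members and lists were chosen with earlier results of these data known. Some items, among them 1 of the 3 motifs searched, are not reported here.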

Additional observations from a re-analysis of the deposited data

Results flagged for a closer look

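In 9 groups of 5 libraries, the CD4IKK1Δ values of each member, the highest and the lowest value were each tested for standing apart. The measure was the gap to the nearest library over the whole range, with a critical value of 0.71. For normally distributed values chance gives about 1 such value in 20 groups, which need not hold for CPM near the floor. *Irf8* in CD4IKK1Δ replicate 4 had a ratio of 0.8853, with 8.46 CPM against 0 to 0.970 CPM in the other libraries. Without this library the difference from CD4NIKΔ was called. *Irf5* in CD4IKK1Δ replicate 3 had a ratio of 0.7296, with 0.736 CPM against 0 to 0.199 CPM. The groups of 3 libraries were too small for this test.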

How the results depend on the processing

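Members kept their direction under RLE, upper-quartile or plain library-size factors in all 3 comparisons. For CD4IKK1Δ against CD4cre, where 0 genes were called, DESeq2 called 552 genes and 2 members, a weak filter 48 and 1, a strict filter 159 and 2, all 11 libraries in the fit 129 and 1, RLE and upper-quartile factors 1 gene each, and leaving out the libraries under 1000 T cell receptor counts 36 genes. Leaving out 1 library at a time gave 0 to 23 genes and 0 to 1 members. For CD4NIKΔ against CD4cre (2649 genes, 1586 higher and 1063 lower, and 5 members), DESeq2 called 8 members, and leaving out 1 library gave 674 to 3468 genes and 4 to 7 members. The split into higher and lower was 1398 and 1717 with upper-quartile factors, 1382 and 1438 with library size alone and 865 and 1264 with all 11 libraries, but 995 and 190 with the replicate block, and between 614 and 60 (without CD4NIKΔ replicate 3) and 1695 and 1773 (without CD4NIKΔ replicate 1) with 1 library left out. For CD4IKK1Δ against CD4NIKΔ (5512 genes, 2444 higher and 3068 lower, and 7 members), leaving out 1 library gave 4116 to 5556 genes and 7 to 8 members, and upper-quartile factors split the calls into 3213 and 2575. *Irf2* in CD4IKK1Δ against CD4cre turned to 0.00301 without the libraries of few receptor counts and to 0.0695 without CD4cre replicate 3, the highest of its values without 1 library (lowest −0.28). The cause of these shifts was not tested.

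Scaling to T cell markers called 8784 genes and 2 members in CD4IKK1Δ against CD4cre, 10488 and 0 in CD4NIKΔ against CD4cre and 13731 and 2 in CD4IKK1Δ against CD4NIKΔ. Without *Thy1* it called 0 genes and 0 members in CD4IKK1Δ against CD4cre, 10740 genes and 0 members in CD4NIKΔ against CD4cre and 14330 and 2 in CD4IKK1Δ against CD4NIKΔ, and it moved the median of all genes to 5.25, −2.24 and 7.45 in the 3 comparisons. Log2 fold changes that turned sign with all markers were, for CD4IKK1Δ against CD4cre, *Irf2* 2.04, *Irf3* 0.51, *Irf8* 0.99, *Irf9* 0.40 and *Irf2bp2* 1.17. For CD4NIKΔ against CD4cre they were *Irf2* −0.37, *Irf3* −0.47, *Irf8* −0.58 and *Irf2bp2* −0.58, and for CD4IKK1Δ against CD4NIKΔ *Irf2* 2.41, *Irf3* 0.98, *Irf4* 1.93, *Irf8* 1.57 and *Irf2bp2* 1.74. Without *Thy1* they were, for CD4IKK1Δ against CD4cre, *Irf1* 1.64, *Irf2* 4.995, *Irf3* 2.95, *Irf5* 0.28, *Irf7* 1.05, *Irf8* 3.23, *Irf9* 1.92 and *Irf2bp2* 4.001. For CD4NIKΔ against CD4cre they were *Irf2* −0.46, *Irf3* −0.54, *Irf8* −0.66 and *Irf2bp2* −0.65, and for CD4IKK1Δ against CD4NIKΔ *Irf1* 1.40, *Irf2* 5.46, *Irf3* 3.49, *Irf4* 3.27, *Irf5* 0.13, *Irf7* 1.03, *Irf8* 3.87, *Irf9* 1.09 and *Irf2bp2* 4.65.

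The replicate numbers are shared between genotypes, but same-numbered libraries did not deviate together (correlations from −0.0890 to 0.0772 over 9 pairs, and 2 of 9 libraries closest to their own number). With the replicate block, 3, 1185 and 4994 genes were called in CD4IKK1Δ against CD4cre, CD4NIKΔ against CD4cre and CD4IKK1Δ against CD4NIKΔ. In the last, *Irf5* was no longer called (−4.02, FDR 0.0757) and *Irf8* was (−4.74, FDR 0.0184).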

Other observations

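*Irf2bp1*, the paralog of *Irf2bp2*, had 40.0 ± 9.07 CPM in CD4cre (SD, n = 3), 40.3 ± 7.47 CPM in CD4IKK1Δ (n = 5) and 54.2 ± 5.93 CPM in CD4NIKΔ libraries (n = 3). Its log2 fold change was 0.43 in CD4NIKΔ against CD4cre (FDR 0.240) and −0.43 in CD4IKK1Δ against CD4NIKΔ (FDR 0.114), and whether it differed from that of *Irf2bp2* was not tested.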
